A study of Mus musculus with 4 samples.

Results

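The tetraspanins are a family of membrane proteins that cross the lipid bilayer 4 times and expose a small and a large extracellular loop, the large one held by disulphide bonds. They bind one another and neighbouring receptors side by side, above all integrins, metalloproteases and immunoglobulin-like proteins, and so arrange these into patches of membrane. In blood they are known for roles in adhesion, platelet function, antigen receptor signalling and the budding of extracellular vesicles. The family was taken as every gene whose symbol in the platform annotation is Tspan followed by a number, together with *Cd9*, *Cd37*, *Cd53*, *Cd63*, *Cd82* and *Cd151*. This gave 25 genes of 22378 named on the array, covered by 353 probe sets that carry no other symbol.

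The data are 4 mouse exon microarrays from Affymetrix, of which 2 hold RNA of SOX7::GFP high cells and 2 that of SOX7::GFP low cells. Both subpopulations came from bone marrow of iSox7 transgenic mice, in which doxycycline switches on SOX7 together with GFP. The labels add the line name iSOX7 and its derivation from Ainv18, and give no age or sex. The marrow cells were passaged 10 to 12 times on irradiated OP9, a mouse bone marrow stromal line, with Kit ligand, interleukin 7 and FLT3 ligand, and were sorted by flow cytometry for cKIT and the SOX7::GFP level. The arrays were grouped by the SOX7 level in their labels, although the text of the series names doxycycline treatment as the contrast. The study describes SOX7::GFP low and high cells as 2 subpopulations that both express SOX7::GFP, found in cultures with doxycycline. The duplicates are called biological, but no source used here says that they came from separate cultures, so the p-values rest on the spread between these arrays alone, which may be technical. The number of arrays limits the precision.

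A probe set, which reads 1 exon or part of an exon, was kept if it reached 5.04 on the log2 scale on at least 2 of the 4 arrays, and the kept probe sets of a gene were averaged. The members closest to this limit were *Tspan17*, with a probe set whose second-highest value was 5.044, and *Tspan15*, with one at 5.026 that was left out. Of the 353 tetraspanin probe sets, 255 were kept, and each of the 25 genes had at least 2. A gene was called at an adjusted p under 0.05 from limma (Benjamini-Hochberg over all 18883 genes tested) and a change of at least 2-fold. *Sox7*, which checks the labels, was at 9.52 and 9.63 in SOX7::GFP high cells, against 9.07 and 8.90 in SOX7::GFP low cells (log2 fold change 0.59, adjusted p = 0.0865 from limma). By limma, 0 of 6 haematopoietic and 0 of 9 measured stromal marker genes were called, with 1 of each list at an unadjusted p under 0.05. The stromal genes averaged 6.37 and 6.38 in SOX7::GFP high cells and 6.53 and 5.88 in SOX7::GFP low cells. Of the erythroid genes 0 of 6 measured were called (0 at an unadjusted p under 0.05). They averaged 6.41 and 6.93 in SOX7::GFP high cells and 5.75 and 7.08 in SOX7::GFP low cells, and so differed between replicates. Of the T lineage genes 0 of 5 were called (1 at an unadjusted p under 0.05), and of the myeloid genes 1 of 7 (3). Of these 3 myeloid genes, *Fcgr3* (log2 fold change 1.82, the one called) and *Lyz2* (0.555) were raised in SOX7::GFP high cells, while *Itgam* (-1.36) was lowered. The median log2 fold change of the myeloid list was 0.04. Of 9 measured B lineage genes 8 were called lower in SOX7::GFP high cells, with averages of 5.71 and 6.83, against 10.01 and 9.87 in SOX7::GFP low cells. Of 8 megakaryocyte genes 4 were called higher, averaging 7.21 and 7.79 in SOX7::GFP high cells and 5.66 and 5.92 in SOX7::GFP low cells. Of 8 endothelial genes 5 were called higher and 1 lower, with averages of 7.28 and 7.49 in SOX7::GFP high cells and 6.12 and 6.15 in SOX7::GFP low cells. The part of these lineages in the tetraspanin values was not tested. In sorted populations, fewer cells of a type and less RNA per cell cannot be told apart.

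The tetraspanins moved in both directions. *Tspan18*, *Tspan6*, *Cd9* and *Cd151* were called higher in SOX7::GFP high cells, *Tspan13* and *Cd37* were called lower, and 19 genes were not called. The 6 genes called are 24.0% of the family, against 6.89% of all genes tested that were called in either direction (3.63% higher and 3.26% lower). An adjusted p under 0.05 without a minimum fold was reached by 7, against 8.67% of all genes. In 17 of the 25 genes the values of the groups did not overlap, or 68.0%, against 54.4% of all genes tested. The SOX7::GFP high values were the higher ones in 13, against 32.2% of all genes, and the lower ones in 4, against 22.2%. The family's median log2 fold change was 0.21, beside 0.05 over all genes, and its median change in either direction was 0.55, beside 0.24. These shares describe the family, and no test was made of whether it differs from other genes. The 2 arrays of a group differed about as much for tetraspanins (median SD 0.16 between the SOX7::GFP high arrays, 0.16 between the SOX7::GFP low arrays) as for all genes (0.13 and 0.14).

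**Figure D1:**
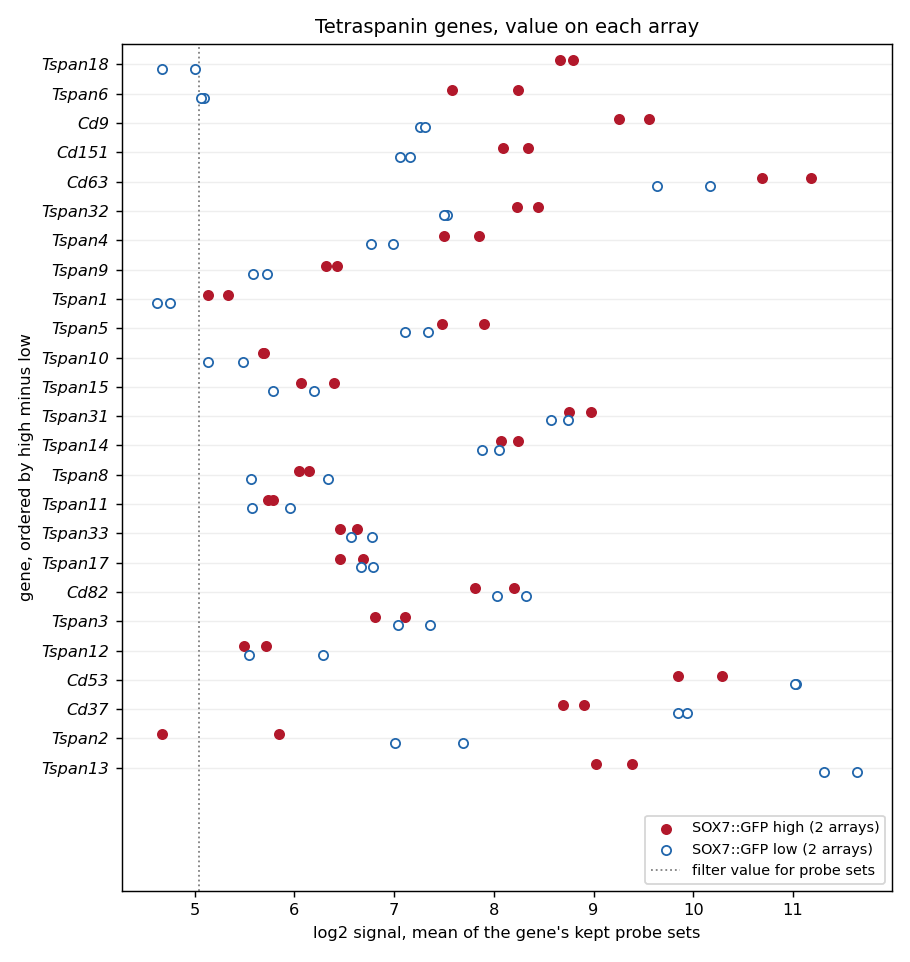
The log2 signal (horizontal axis) of each of the 25 tetraspanin genes (rows) on each array, with filled points for the 2 SOX7::GFP high arrays, open points for the 2 SOX7::GFP low arrays and a dotted line at the filter value of 5.04. Points of one row may be compared, points of different rows may not, as probe sets differ in brightness; in 17 rows the filled and open points do not overlap.

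The largest change of the family was that of *Tspan18*, a tetraspanin of endothelial cells that takes part in calcium entry through Orai1. It was at 8.66 and 8.80 in SOX7::GFP high cells, against 4.67 and 5.00 in SOX7::GFP low cells. The groups were far apart, and both SOX7::GFP low values lay under the filter value, with single probe sets on both sides of it. How much of this low signal is background was not tested, so the size of the fold below is uncertain. The log2 fold change was 3.89 (SE 0.18, 95% interval 3.44 to 4.35, adjusted p = 0.00360 from limma). Of its 20 kept probe sets 17 were called higher and 19 had a positive difference. Single probe sets ran from -0.27 to 6.13, the lowest being 1 that was dim on all arrays, at 4.61 and 5.02 in SOX7::GFP high cells and 5.06 and 5.10 in SOX7::GFP low cells. As 7 of the 20 passed the filter through the SOX7::GFP high arrays alone and 1 through the SOX7::GFP low arrays alone, the other 12 were averaged too, and gave 3.75. The next gene on chromosome 2 in the RefSeq table, with 0 coding genes between, is another tetraspanin gene, *Cd82*, whose product is known as a suppressor of metastasis. *Cd82* was at 8.20 and 7.81 in SOX7::GFP high cells and 8.32 and 8.03 in SOX7::GFP low cells, and these ranges overlapped (log2 fold change -0.17, 95% interval -0.70 to 0.36, adjusted p = 0.691 from limma).

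*Tspan6*, whose product restrains antiviral signalling from RIG-I-like receptors, was at 7.58 and 8.25 in SOX7::GFP high cells, against 5.10 and 5.06 in SOX7::GFP low cells. Here too the SOX7::GFP low values stood close to the filter value. Its log2 fold change was 2.84 (SE 0.25, 95% interval 2.18 to 3.50, adjusted p = 0.00776 from limma). The difference was positive in all 18 kept probe sets, ran from 2.16 to 3.70 among them, and was called in 14. For 8 of them the sign was fixed, as they passed the filter through the SOX7::GFP high arrays alone. The other 10 averaged 2.58. *Cd9* encodes a tetraspanin of stem and progenitor cells, megakaryocytes and platelets that is also needed on the egg for fusion with sperm. Its values were 9.25 and 9.55 in SOX7::GFP high cells and 7.26 and 7.31 in SOX7::GFP low cells. These lay well above the filter value in both groups, with a spread within each group that was small beside the gap. For *Cd9* this is a log2 fold change of 2.12 (SE 0.16, 95% interval 1.69 to 2.54, adjusted p = 0.00628 from limma), or 4.34-fold, with a positive difference in all 12 kept probe sets and a call in 10. Among those called, 1 passed the filter through the SOX7::GFP high arrays alone, and the gene was at 2.16 without it. Of the endothelial and megakaryocyte marker genes, 5 of 8 and 4 of 8 were called higher, as were *Tspan18*, *Tspan6* and *Cd9*. Of the other endothelial genes *Kdr* was called lower (log2 fold change -1.63, adjusted p = 0.00713 from limma) and 2 were not called. The other 4 megakaryocyte genes were not called. The part of these lineages in the tetraspanin values was not tested.

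*Cd151* encodes a partner of laminin-binding integrins. It was at 8.09 and 8.35 in SOX7::GFP high cells, against 7.16 and 7.06 in SOX7::GFP low cells. The difference was 1.11 on the log2 scale (SE 0.16, 95% interval 0.70 to 1.53, adjusted p = 0.0224 from limma). All 14 of its kept probe sets had a positive difference (0.27 to 1.80), while none passed the test alone. This call was lost without any one of the 4 arrays, where the difference was 0.99 to 1.24 and limma gave an adjusted p of 0.0767 to 0.117. *Tspan4*, a tetraspanin of migrasomes that lies 1 coding gene away from *Cd151* on chromosome 7, was at 7.50 and 7.86 in SOX7::GFP high cells and 6.99 and 6.77 in SOX7::GFP low cells. Its groups did not overlap either, and all 10 of its kept probe sets had a positive difference, but it missed the threshold (log2 fold change 0.80, 95% interval 0.30 to 1.29, adjusted p = 0.0773 from limma).

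Among the genes lower in SOX7::GFP high cells, *Tspan13* had the largest change. It was at 9.03 and 9.38 in SOX7::GFP high cells, against 11.65 and 11.32 in SOX7::GFP low cells, and was thus well above the filter value on all 4 arrays. This gave a log2 fold change of -2.28 (SE 0.20, 95% interval -2.81 to -1.74, adjusted p = 0.00776 from limma). All 9 of its probe sets were kept and all 9 were called lower, with differences from -2.85 to -1.74. Without SOX7::GFP high replicate 1 it was -2.10 and the call was lost (adjusted p = 0.0575 from limma). *Cd37* encodes a tetraspanin of leukocytes, abundant in mature B cells, which organises the α4β1 integrin in their membrane. Its values were 8.90 and 8.69 in SOX7::GFP high cells and 9.94 and 9.85 in SOX7::GFP low cells. A change of -1.10 on the log2 scale exceeded the spread within each group (SE 0.15, 95% interval -1.49 to -0.70, adjusted p = 0.0205 from limma, 2.14-fold lower). Of its 18 kept probe sets all had a negative difference and 6 were called. Leaving out any one array ended this call (-1.20 to -0.99, adjusted p of 0.0806 to 0.115 from limma), as did keeping every probe set.

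**Figure D2:**
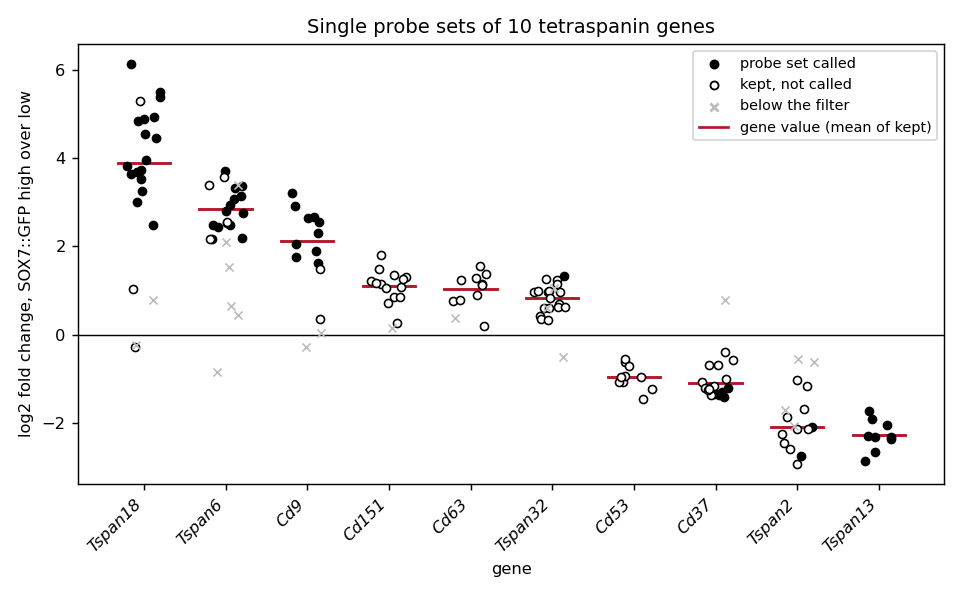
The log2 fold change of SOX7::GFP high over SOX7::GFP low cells (vertical axis) of single probe sets, for the 6 genes called and for *Cd63*, *Tspan32*, *Cd53* and *Tspan2*; filled points were called, open points were kept and not called, crosses were below the filter, and the bar is the gene value. All 9 probe sets of *Tspan13* and 17 of the 20 kept for *Tspan18* were called, against none of those of *Cd151*.

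*Tspan2*, a tetraspanin gene best known from oligodendrocytes, had nearly as large a difference as *Tspan13* without passing. It was at 5.85 and 4.67 in SOX7::GFP high cells, against 7.69 and 7.01 in SOX7::GFP low cells. The groups did not overlap, but the 2 SOX7::GFP high arrays differed by more than those of any tetraspanin called. On the log2 scale the change was -2.09 (SE 0.46, 95% interval -3.29 to -0.90, adjusted p = 0.0634 from limma), and all 12 kept probe sets had a negative difference. For 2 of them the sign was fixed, as they passed the filter through the SOX7::GFP low arrays alone. Without these the gene was at -2.02. *Cd53* encodes a leukocyte tetraspanin that in mice helps to keep the interleukin 7 receptor on early B cells. It was at 10.29 and 9.84 in SOX7::GFP high cells and 11.03 and 11.02 in SOX7::GFP low cells, so that both SOX7::GFP high values were lower. All 10 of its probe sets had a negative difference, but with a change of -0.96 on the log2 scale (95% interval -1.47 to -0.45) it was not called (adjusted p = 0.0542 from limma). Of the B lineage markers 8 of 9 were called lower in SOX7::GFP high cells, where *Cd37*, *Cd53*, *Tspan2* and *Tspan13* were lower too. From replicate 1 to replicate 2 of SOX7::GFP high cells the B lineage average rose from 5.71 to 6.83. *Tspan13* also rose between these arrays, while *Cd37*, *Cd53* and *Tspan2* fell. The myeloid average fell between the same arrays, from 8.68 to 7.91, and was 8.43 and 8.22 in SOX7::GFP low cells. The part of the B lineage and of myeloid cells in the tetraspanin values was not tested.

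*Cd63* encodes a tetraspanin of lysosomes and secretory granules, which reaches the surface when mast cells, basophils and platelets degranulate. It was at 11.18 and 10.69 in SOX7::GFP high cells, against 10.16 and 9.64 in SOX7::GFP low cells. Although the groups did not overlap, the SD was 0.35 in SOX7::GFP high and 0.37 in SOX7::GFP low cells, and the change of 1.03 on the log2 scale (95% interval 0.33 to 1.74) missed the threshold (adjusted p = 0.0950 from limma). *Tspan32*, a tetraspanin gene of blood cells also listed as Tssc6 or Phemx, whose product binds the platelet integrin αIIbβ3, was at 8.23 and 8.45 in SOX7::GFP high cells and 7.52 and 7.50 in SOX7::GFP low cells. It passed the test but changed by less than 2-fold (log2 fold change 0.83, SE 0.15, 95% interval 0.44 to 1.22, adjusted p = 0.0399 from limma), and it did not pass when arrays were centred on reference genes (0.72, adjusted p = 0.0511) or when any one array was left out (0.72 to 0.94, adjusted p from 0.117 to 0.179). All 18 of its kept probe sets had a positive difference, and 1 was called. Another 1 passed the filter through the SOX7::GFP high arrays alone, and the gene was at 0.82 without it.

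*Tspan9*, a platelet tetraspanin gene whose product associates with the collagen receptor GPVI, was not called. It was 6.31 and 6.43 in SOX7::GFP high cells, against 5.72 and 5.58 in SOX7::GFP low cells (log2 fold change 0.72, adjusted p = 0.0527 from limma). Of its 8 kept probe sets 5 had a positive and 3 a negative difference, from -0.91 to 2.29, and 1 was called higher. Both of these extremes and the one called are probe sets that passed the filter through the arrays of 1 group alone. Without these 3 the differences ran from -0.15 to 1.76, none was called, and the gene was at 0.50. For *Tspan9* and for *Tspan33*, *Tspan12*, *Tspan11*, *Tspan10*, *Tspan15*, *Tspan8* and *Tspan1*, at least as many probe sets fell below the filter as passed it.

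A subgroup of the family, called TspanC8 for the 8 cysteines of the large loop, escorts the metalloprotease ADAM10 to the cell surface. Its 6 members *Tspan5*, *Tspan10*, *Tspan14*, *Tspan15*, *Tspan17* and *Tspan33* were all measured, and limma called 0 of them (0 at an unadjusted p under 0.05). Their log2 fold changes had a median of 0.21 and were 0.47 for *Tspan5*, 0.38 for *Tspan10*, 0.24 for *Tspan15*, 0.18 for *Tspan14*, -0.13 for *Tspan33* and -0.15 for *Tspan17*. *Tspan10* and *Tspan15* each had 3 probe sets, of which 1 passed the filter through the SOX7::GFP high arrays alone, and were at 0.23 and 0.01 without it. That of *Tspan5*, the largest, had a 95% interval of -0.06 to 1.00 (adjusted p = 0.260 from limma), with values of 7.91 and 7.48 in SOX7::GFP high cells and 7.34 and 7.11 in SOX7::GFP low cells. *Tspan33*, known as Penumbra from erythroid progenitors, was at 6.45 and 6.63 in SOX7::GFP high cells and 6.57 and 6.77 in SOX7::GFP low cells, which overlap (-0.13, 95% interval -0.54 to 0.28, on 3 probe sets). *Adam10* itself changed by -0.25 on the log2 scale (95% interval -0.67 to 0.17, adjusted p = 0.438 from limma).

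The remaining members were not called. *Tspan3*, whose product has been tied to self-renewal of leukaemia cells, had a log2 fold change of -0.25 (95% interval -0.75 to 0.26), and *Tspan31*, first found amplified in sarcomas, one of 0.21 (-0.21 to 0.62). *Tspan12*, a co-receptor gene of Norrin and Frizzled 4 signalling, was at -0.30 (-1.04 to 0.43) on 4 probe sets. *Tspan1* was at 5.14 and 5.34 in SOX7::GFP high cells and 4.62 and 4.75 in SOX7::GFP low cells, close to the filter value, without passing (0.55, 0.15 to 0.95, adjusted p = 0.108 from limma). This rests on 2 probe sets of 9, of which 1 passed the filter through the SOX7::GFP high arrays alone, and the other gave 0.08. *Tspan8*, a gene of gut epithelium and its tumours, was at 0.14 (-0.60 to 0.88), again on 2 probe sets, and *Tspan11* had a difference of -0.00 (-0.48 to 0.47). The interval of *Tspan12* still includes a 2-fold change.

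**Figure D3:**
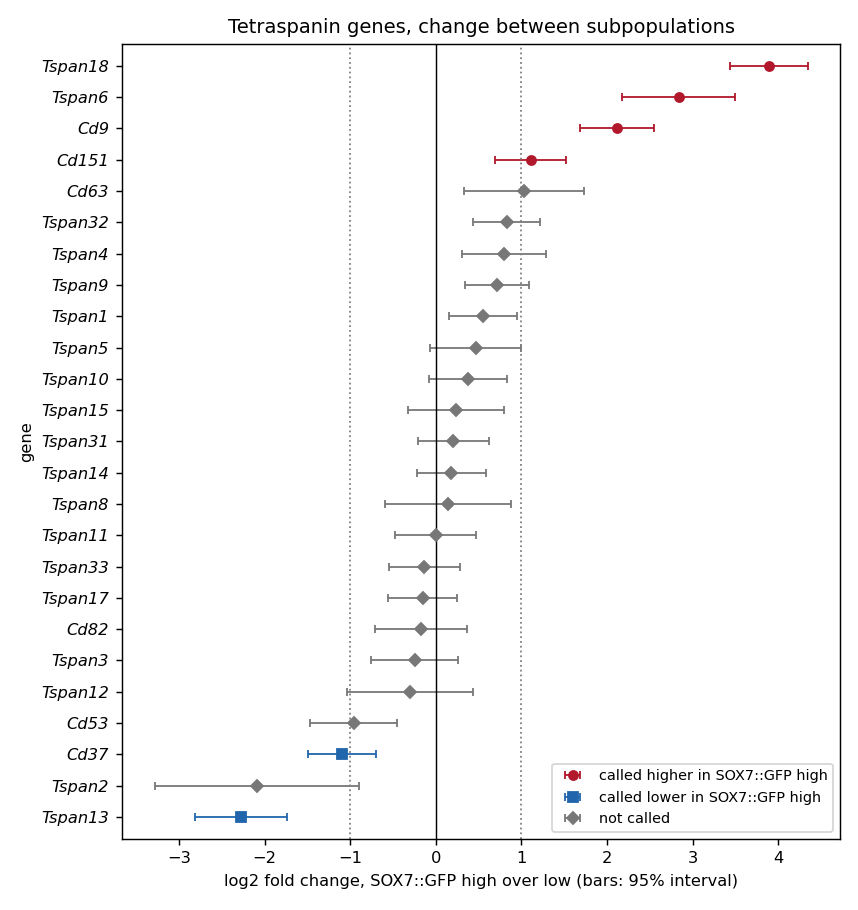
The log2 fold change of SOX7::GFP high over SOX7::GFP low cells (horizontal axis) of each of the 25 tetraspanin genes (rows), with bars for the 95% interval from limma and dotted lines at a 2-fold change. Circles mark the 4 genes called higher, squares the 2 called lower and diamonds the 19 not called, of which *Tspan2* has the widest bar.

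To show the sequence before the genes that were called, promoter sequence was taken from RefSeq (GRCm38.p6) as the 250 bases before the annotated transcript start. Promoters were found for 24 of the 25 genes, 34 in all, and none for *Tspan18*. Those of 2 genes that rose and 2 that fell are printed 5′ to 3′ on the gene's strand, with matches to ACAAT on either strand, the core that SOX factors bind, in capitals. The *Tspan6* promoter (chrX:133898430-133898679, minus strand) has 1 match, 50 bases before the start, and that of *Cd9* (chr6:125494761-125495010, minus strand) has 0. The promoter of *Cd37* (chr7:45238840-45239089, minus strand) has 1 match, 159 bases before the start, and that of *Tspan13* (chr12:36042479-36042728, minus strand) has 0. *Cd151*, also called, has a promoter with 0 matches and another with 1, 128 bases before the start, which are not printed.
Tspan6: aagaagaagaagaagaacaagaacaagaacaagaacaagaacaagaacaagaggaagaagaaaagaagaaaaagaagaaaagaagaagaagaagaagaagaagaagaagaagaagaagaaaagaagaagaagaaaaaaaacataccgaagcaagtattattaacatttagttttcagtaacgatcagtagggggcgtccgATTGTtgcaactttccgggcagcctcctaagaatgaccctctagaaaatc
Cd9: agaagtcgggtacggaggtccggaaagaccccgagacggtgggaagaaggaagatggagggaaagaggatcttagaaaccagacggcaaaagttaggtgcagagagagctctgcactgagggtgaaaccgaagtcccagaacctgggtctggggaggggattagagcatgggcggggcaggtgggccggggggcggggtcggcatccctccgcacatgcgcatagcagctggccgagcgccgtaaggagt
Tspan13: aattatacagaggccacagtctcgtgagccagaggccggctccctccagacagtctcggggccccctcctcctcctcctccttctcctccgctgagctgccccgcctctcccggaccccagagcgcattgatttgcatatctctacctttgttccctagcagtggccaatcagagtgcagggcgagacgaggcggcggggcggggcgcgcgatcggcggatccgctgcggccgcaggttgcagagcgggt
Cd37: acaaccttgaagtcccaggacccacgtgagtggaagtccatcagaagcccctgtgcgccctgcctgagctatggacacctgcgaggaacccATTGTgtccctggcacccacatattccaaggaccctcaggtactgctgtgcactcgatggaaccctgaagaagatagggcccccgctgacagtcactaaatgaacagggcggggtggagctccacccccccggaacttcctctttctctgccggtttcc
ACAAT or its reverse complement ATTGT was found in 9 of the 34 tetraspanin promoters (26.5%) and in 27.7% of all 32851 promoters of this length. AGATAA, a form of the GATA motif, was found on either strand in 2 (5.88%, against 9.99% of all promoters), and CCGGAA, a form of the ETS motif, in 6 (17.6%, against 12.0%). Of the 6 promoters of called genes, 3 held ACAAT, 0 held AGATAA and 3 held CCGGAA, which are too few to read a share from. Matches of different motifs can share their end letters, and a match is a description of the letters only.

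Tetraspanins act through the proteins they hold, so genes of 26 known partners were listed, of which 25 were measured. In SOX7::GFP high cells 4 were called higher, 1 was called lower and 20 were not called, so that 20.0% were called, against 6.89% of all genes. *Itga2b* and *Itgb3* encode the chains of the platelet integrin αIIbβ3, a partner of *Cd9*, *Cd151* and *Tspan32* products. *Itga2b* was at 8.06 and 8.45 in SOX7::GFP high cells, against 5.65 and 6.05 in SOX7::GFP low cells (log2 fold change 2.40, SE 0.22, adjusted p = 0.00852 from limma). *Itgb3* was at 7.95 and 7.84 in SOX7::GFP high cells and 6.07 and 6.12 in SOX7::GFP low cells (log2 fold change 1.80, adjusted p = 0.00621 from limma). In both genes the groups lay far apart, beside the megakaryocyte marker list, to which *Itga2b* belongs. The *Itga2b* call was lost without SOX7::GFP high replicate 1 (2.59) and without replicate 2 (2.21). That of *Itgb3* was lost without SOX7::GFP high replicate 1 (1.74).

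*Itga6*, which encodes the laminin-binding α6 chain held by CD151, was at 8.54 and 8.48 in SOX7::GFP high cells, against 7.29 and 7.34 in SOX7::GFP low cells. The change was 1.19 on the log2 scale (SE 0.14, adjusted p = 0.0126 from limma), with 21 of 37 probe sets called, but the call was lost when any one array was left out (adjusted p from 0.0593 to 0.0827). *Itga3*, the gene of the other α chain known for strong binding of CD151, was at 5.24 and 5.70 in SOX7::GFP high cells and 5.73 and 5.42 in SOX7::GFP low cells, with overlap (-0.10, adjusted p = 0.835 from limma). *Itgb1*, whose β1 chain pairs with both, was 0.64 higher on the log2 scale and was not called (adjusted p = 0.0651 from limma). The membrane metalloprotease gene *Mmp14* was at 6.55 and 6.36 in SOX7::GFP high cells, against 5.11 and 4.90 in SOX7::GFP low cells, the last of these under the filter value (log2 fold change 1.45, adjusted p = 0.0121 from limma). When any array but SOX7::GFP low replicate 1 was left out, the *Mmp14* call was lost (1.35 to 1.55). *Itga4*, which encodes the α4 chain that CD37 organises, was the gene called lower. It was at 5.68 and 5.57 in SOX7::GFP high cells, against 6.46 and 6.96 in SOX7::GFP low cells (log2 fold change -1.09, SE 0.21, adjusted p = 0.0480 from limma). This call was lost with the median of probe sets (-0.65, adjusted p = 0.261 from limma), with a further quantile normalization (-1.12, adjusted p = 0.0639) and when any array but SOX7::GFP low replicate 1 was left out (-1.15 to -0.84, adjusted p from 0.124 to 0.207). *Kit*, a partner of several tetraspanins, was 0.89 higher on the log2 scale (adjusted p = 0.0466 from limma), which is under 2-fold, and its protein was used in the sort. The immunoglobulin-like partners *Igsf8* (-0.26), *Ptgfrn* (0.08) and *Igsf3* (0.41) were not called, nor was *Sdcbp*, the syntenin gene whose product binds CD63 (-0.32, adjusted p = 0.252 from limma). With all arrays, 6 of the 25 partners had an adjusted p under 0.05 from limma, against 8.67% of all genes. An unadjusted p under 0.05 was reached by 12. The share of all genes that reached it was not counted, so the 12 are not read as a trait of partners.

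**Figure D4:**
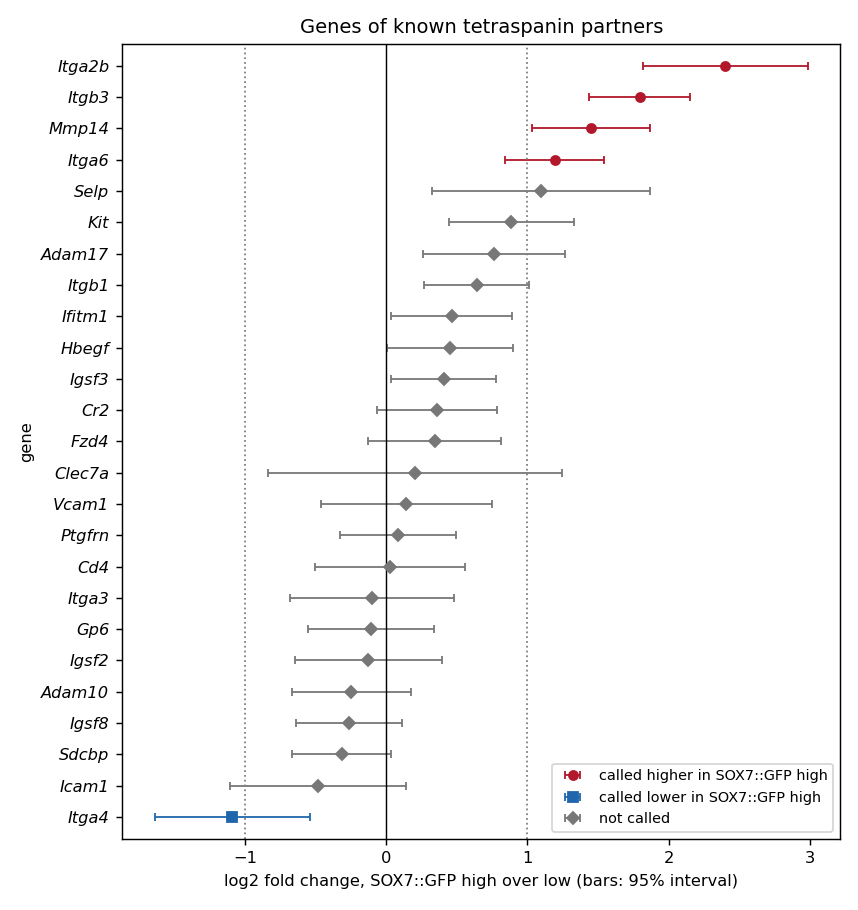
The log2 fold change of SOX7::GFP high over SOX7::GFP low cells (horizontal axis) of 25 genes of known tetraspanin partners (rows), with bars for the 95% interval from limma and dotted lines at a 2-fold change. The integrin genes *Itga2b*, *Itgb3* and *Itga6* and the protease gene *Mmp14* were called higher, and *Itga4* was called lower.

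Of the 255 tetraspanin probe sets kept, 43 were called higher and 17 lower when each was tested alone over all 191615 kept probe sets, or 23.5%, against 4.02% of all kept probe sets (2.25% higher and 1.77% lower). Those called came from 8 genes, and 41 of the 43 called higher from the genes called higher. Probe sets of 1 gene are not independent of each other. Among the 255 kept, 26 passed the filter through the arrays of 1 group alone, so that the sign of their difference was fixed. The share called thus describes these probe sets, and no test was made of whether the family differs from other genes. When each array was left out in turn, *Tspan18* (3.73 to 4.06), *Tspan6* (2.50 to 3.17) and *Cd9* (1.97 to 2.27) were called in all 4 fits. Of the genes called lower, *Tspan13* kept its call in 3 of the 4 fits and *Cd37* in 0. Fewer single tetraspanin probe sets were called when any 1 array was left out, as were fewer of all genes. The calls over all probe sets in these fits were not counted, so this is not read as a trait of the family.

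**Figure D5:**
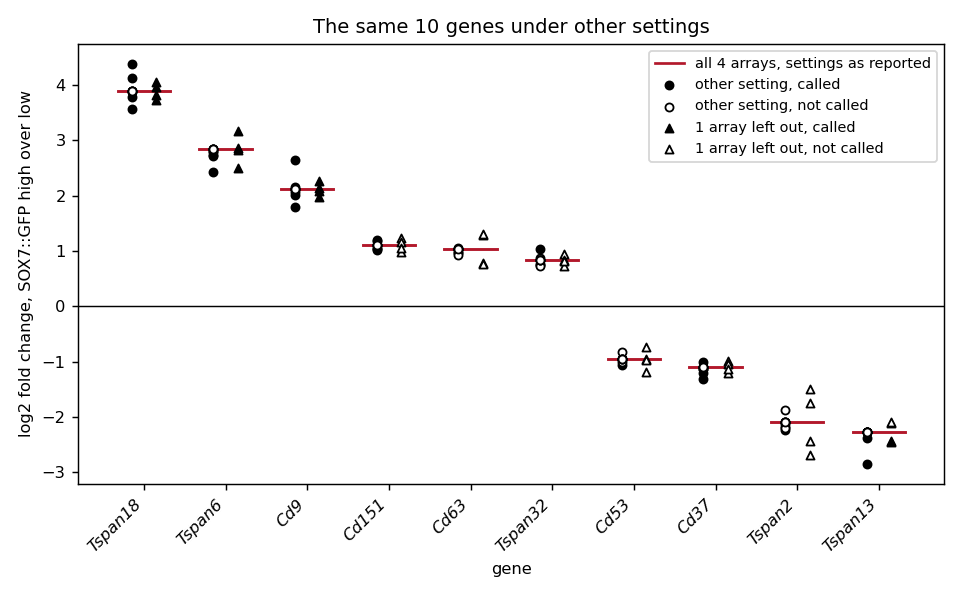
The log2 fold change of SOX7::GFP high over SOX7::GFP low cells (vertical axis) of 10 tetraspanin genes with all 4 arrays (bar), with 1 array left out (triangles) and under other settings (circles). Filled symbols were called, judged on the rounded change. For that reason *Cd37* with no filter on dim probe sets, at -1.0, is filled although its call was lost. *Tspan18*, *Tspan6* and *Cd9* have no open triangle, while *Cd151*, *Cd37*, *Tspan2*, *Cd63*, *Cd53* and *Tspan32* have 4 each.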

How the data were processed

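Each of the 4 Affymetrix mouse exon 1.0 ST arrays gave 1 column of the table the authors deposited, on the log2 scale, for 1236087 probe sets. Per the labels the authors used robust multi-array averaging (RMA, version not given in the sources used here), which subtracts background and evens out the arrays, and the column medians were 3.90 to 3.91. The detection filter named in the study's methods was not used here, and a minimum of 5.04 on at least 2 arrays stood in its place. Such a filter favours features that differ, since a probe set can pass through the group where it is high.

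Names came from the platform annotation, which gave 321091 probe sets 1 symbol and 7796 several, and the other 907200 were not used. The filter left 191615 probe sets of 18883 genes, a median of 7 per gene and 10 per tetraspanin, and each gene was their mean. Both groups entered a limma fit (limma 3.58.1, R 4.3.3) over all genes, which had been tested on simulated data. The study's methods name Student's t-test without saying to which data it was applied, so the t-test was an alternative, and the stated 2-fold and false discovery thresholds were used. Alternatives were other filters, summaries, scalings, variance models, the methods' t-test, a replicate block and leaving out arrays. Every tetraspanin was named, with values per array where it was called, passed the test, changed by 2-fold or has a CD name, and so was every called partner. Other values per array, *Cd53* in the plots and the partners that were not called were chosen after their values were seen. The family, the lists and the tests were chosen with earlier results of these data known. Levels were not compared between genes.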

Additional observations from a re-analysis of the deposited data

How the results depend on the processing

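Called higher were 4 to 6 tetraspanins under every other setting except the methods' t-test with Benjamini-Hochberg adjustment (0) and a call in the majority of a gene's probe sets (3), and 3 with any 1 array left out. The methods' t-test called 0 tetraspanins higher, 0 lower, 0 partners, and 0 genes higher and 0 lower of all; at an unadjusted p under 0.05, a setting chosen after seeing the data, it called 4 and 2 tetraspanins, 4 partners, and 636 and 570 of all genes. Tetraspanins called lower numbered 1 with no filter on dim probe sets and 1 where the majority of probe sets had to be called. Apart from these settings and the adjusted t-test, they were 2 or 3 with all arrays, and fewer with any 1 array left out. With an array left out, partners called numbered 0 to 4, genes higher 129 to 433 and genes lower 149 to 325.

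Single tetraspanin probe sets called were 60, but 0 with no filter, 99 with limma's trend and robust fit, 38 with the replicate block and 0 to 19 with an array left out. The replicate numbers are in the labels of both groups, but no source ties them to a shared culture, and the deviations of same-numbered arrays correlated at r = 0.104 over genes. With the replicate block 5 tetraspanins were called higher and 3 lower, *Cd63* (adjusted p = 0.0368 from limma) and *Tspan2* (0.0154) being added, with 700 and 639 of all genes, while *Tspan32* (0.0659) and *Itga4* (0.0667) no longer passed. *Tspan2* also passed with a minimum of 6 (-2.18), the median of probe sets (-2.23), 3 or more probe sets per gene and the trend and robust fit, and *Cd63* with the last of these and with 3 or more probe sets. *Tspan32* and *Tspan9* passed with the median of probe sets (1.04 and 1.06), and *Cd53* when arrays were centred on 10 reference genes (-1.06), which moved the median of all genes by -0.11.

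The sign turned for genes that were not called. With a minimum of 6, *Tspan10* was at -0.34, *Tspan15* at -0.17, *Upk1a* at 0.43 and *Prph2* at 0.16. With the median of probe sets *Tspan31* was at -0.02 and *Prph2* at 0.19, and with no filter *Tspan11* was at 0.09. With an array left out, *Cd82* lay between -0.37 and 0.02, *Tspan8* between -0.24 and 0.53, *Tspan11* between -0.19 and 0.19 (0.02 without SOX7::GFP high replicate 1), *Tspan12* between -0.68 and 0.07, *Upk1b* between -0.56 and 0.04 and *Prph2* between -0.52 and 0.23. The cause was not tested. Of the values of single genes under these settings, 388 kept direction and side of the threshold, 37 lost a call and 11 gained one. Low signal in SOX7::GFP low cells makes the size of the changes of *Tspan18* and *Tspan6* uncertain.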

Other observations

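The array also holds 5 tetraspanin genes that carry neither a Tspan number nor one of the CD names used above, of which limma called 0, with 1 at an unadjusted p under 0.05. *Cd81*, which encodes a part of the B-cell co-receptor and is the next coding gene to *Tspan32* on chromosome 7, was at 11.01 and 11.09 in SOX7::GFP high cells, against 11.16 and 11.40 in SOX7::GFP low cells. All 4 values were close together (log2 fold change -0.23, 95% interval -0.64 to 0.17, adjusted p = 0.444 from limma). *Rom1*, a gene of photoreceptor discs, was at 5.91 and 5.98 in SOX7::GFP high cells and 5.34 and 5.13 in SOX7::GFP low cells, without passing (0.71, adjusted p = 0.0588 from limma). Its photoreceptor partner *Prph2* differed by -0.15 on the log2 scale, and the urothelial genes *Upk1a* and *Upk1b* had -0.16 and -0.26.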
